A study of Mus musculus with 8 samples.

Results

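Collagens are the triple-helical proteins of the extracellular matrix (ECM), and each collagen gene encodes a single chain of the helix. Every gene of the deposited count table whose symbol consists of Col, a number, the letter a and a number was taken as a collagen chain, which gave 39 of 15859 genes. They comprise 11 chains of fibrillar collagens, 4 of the basement membrane collagen, 8 of FACITs (fibril-associated collagens with interrupted triple helices), 5 of the beaded-filament collagen, 2 multiplexins, 4 transmembrane collagens and 5 chains outside these 6 classes. Of the 44 chains listed by name for these classes, *Col4a3*, *Col4a4*, *Col9a1*, *Col6a6* and *Col26a1* were not analysed here. Fibrillar collagens bear tension in the interstitial matrix, type IV collagen is the scaffold of basement membranes, FACITs coat fibrils, type VI collagen forms beaded filaments around cells, and multiplexins lie in the zone around basement membranes. In the colon wall, fibroblasts, smooth muscle cells and the cells of blood vessels are known makers of these proteins. Procollagen chains are hydroxylated and folded in the endoplasmic reticulum (ER), trimmed by proteases outside the cell, bound by receptors and degraded by matrix metalloproteinases.

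RNA with poly(A) tails from the distal colon of 8 male mice was sequenced, in a study of heat shock factor 1 (HSF1), to compare RNA with protein changes found before tumors form. All mice were on a BALB/c x 129SvEV background, and their age is given as 10 weeks in the sample labels and as 9.5 weeks in the description of the series. Each of 4 groups had 2 mice, which were untreated WT mice (WT day 0), untreated mice with the *Hsf1* null genotype (null day 0), treated WT mice (WT day 15) and treated mice with the *Hsf1* null genotype (null day 15). The latter genotype is called null here, and of any 2 values for a group that of mouse 1 is the first. Treated mice received azoxymethane (AOM), a carcinogen, at 10 mg/kg at the age of 8 weeks and, from day 7, dextran sulfate sodium (DSS), which injures the epithelium, at 1.5% in drinking water for 5 days. The labels end the protocol directly after DSS, whereas the sample titles give day 15, and the name day 15 is kept here.

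The libraries held 9393945 and 2553348 counts (WT) and 12440257 and 2675976 counts (null) at day 0. At day 15 they held 11097367 and 9247665 counts (WT) and 7379442 and 7593259 counts (null). Levels are given as CPM (counts scaled to library size), with library sizes adjusted by the TMM method, and comparisons between genes as CPM per kb of the longest coding transcript. The log2 CPM of the 2 mice of a group had a Pearson's r of 0.956 (WT) and 0.959 (null) at day 0 and 0.956 (WT) and 0.953 (null) at day 15, where genes do not count as independent replicates.

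The targeted gene *Hsf1* was at 40.5 and 36.5 CPM (WT) and 14.0 and 11.9 CPM (null) at day 0 and 50.5 and 45.9 CPM (WT) and 13.5 and 9.09 CPM (null) at day 15. All 4 WT libraries lay above all 4 null libraries without overlap. The tissue label was checked against 10 genes of the intestinal epithelium, all of which were counted in every mouse, with *Krt8* at 3437 CPM or more and *Cdh1* at 782 CPM or more. Summed over the 10 genes, the epithelial level was 10578 and 15292 CPM (WT) and 17480.2 and 13405 (null) at day 0 and 10453 and 13168 (WT) and 23736 and 17868 (null) at day 15. Of 8 smooth muscle genes, *Acta2* was the most abundant in all 8 mice, although activated fibroblasts express it too. *Myh11* was at 207 CPM or more and *Des* at 193 CPM or more, so that the samples hold smooth muscle RNA as well as epithelial RNA.

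In many chains 2 libraries stood apart from the other mouse of their group. WT day 0 mouse 1 had several times the *Col1a1*, *Col1a2*, *Col5a2* and *Col12a1* level of mouse 2. The same was seen for *Serpinh1*, the collagen chaperone, at 381 and 69.9 CPM. Mouse 1 of null day 15 lay below mouse 2 in each of the 17 chains with a mean of at least 20 CPM or a call. The median deviation of the 31 tested chains from their mean over all 8 samples, in log2 units, was 0.01 and -0.43 (WT) and -0.53 and -0.67 (null) at day 0. At day 15 it was 0.92 and 0.73 (WT) and -0.54 and 0.44 (null). Both WT mice at day 15 had the highest medians.

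Collagen chains took up 0.417% (95% exact confidence interval 0.413 to 0.421) and 0.176% (0.171 to 0.181) of all counts in the WT mice at day 0. Their share in untreated null mice was 0.144% (0.142 to 0.146) and 0.145% (0.140 to 0.149). Treated WT mice had 0.627% (0.622 to 0.632) and 0.503% (0.498 to 0.507), and treated null mice had 0.113% (0.110 to 0.115) and 0.359% (0.355 to 0.363). These intervals cover counting error only, and the distance between mice of a group exceeded them in every group but the untreated null mice. Both WT mice lay above both null mice on each day, and at day 15 the lower WT mouse was above the higher null mouse by more than the intervals. No sum over chains was tested. Fewer matrix-producing cells and less collagen RNA per cell cannot be told apart in RNA from whole tissue.

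On the scale of CPM per kb, the summed level of all 39 chains was 653 and 311 (WT) and 257 and 243 (null) at day 0, and 1036 and 819 (WT) and 224 and 628 (null) at day 15. Fibrillar chains made up the largest class in each mouse, with 65.5% and 46.2% of this sum in WT and 42.4% and 48.0% in null mice at day 0, and 41.8% and 46.3% (WT) and 38.1% and 42.4% (null) at day 15. Basement membrane chains made up 11.2% and 17.2% (WT) and 20.3% and 15.3% (null) at day 0, and 23.1% and 27.1% (WT) and 21.3% and 20.8% (null) at day 15. WT mice at day 15 thus had the highest share of basement membrane chains, without overlap with any other group. Multiplexins made up 2.65% and 4.64% (WT) and 4.70% and 3.43% (null) at day 0, and 10.5% and 7.56% (WT) and 4.72% and 4.88% (null) at day 15. Here too the WT mice at day 15 were apart, above all 6 other mice. Beaded-filament chains took between 16.2% and 29.0%, FACITs took between 1.995% and 5.43% of the sum, transmembrane chains between 0.197% and 0.740%, and the remaining chains between 0.215% and 1.33%.

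**Figure D1:**
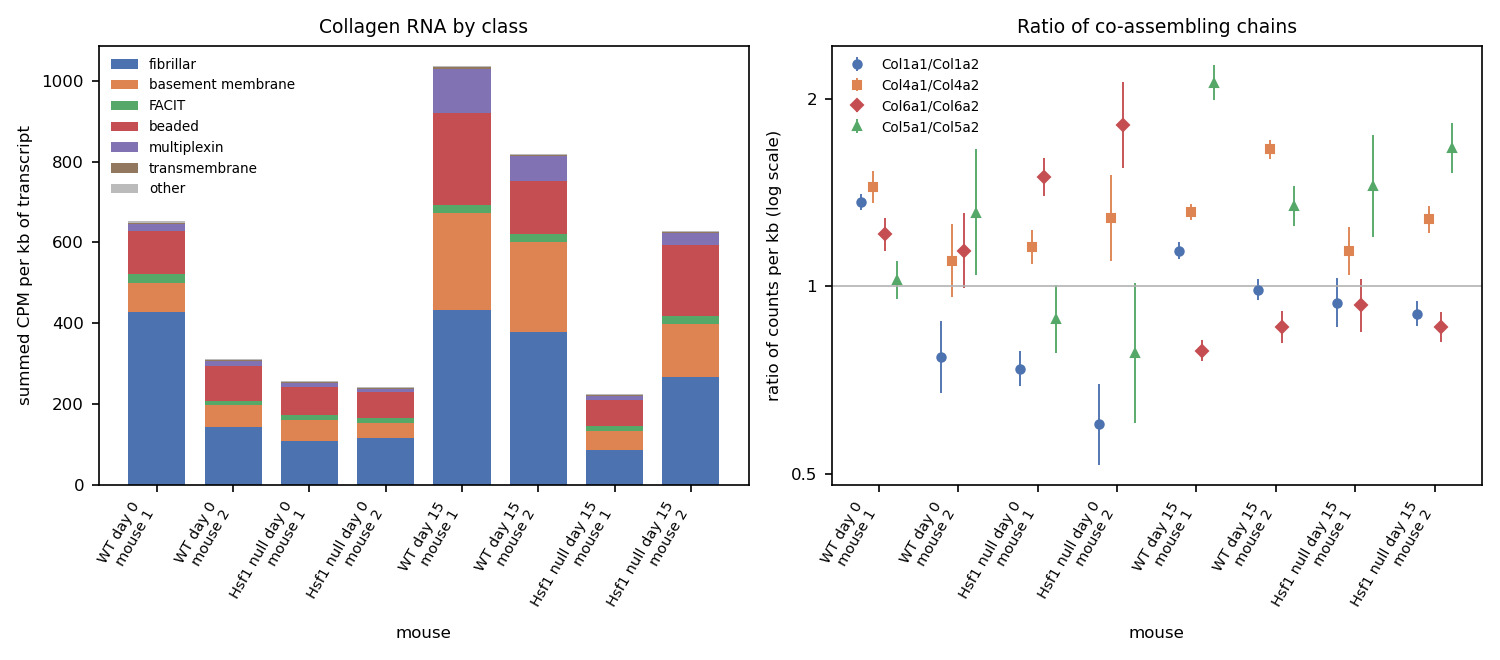
The left panel plots the summed level of the chains of each class, in CPM per kb of transcript, as stacked bars for the 8 mice, whose totals run from 224 to 1036. The right panel plots the ratio of counts per kb within 4 pairs of co-assembling chains on a log axis, with 95% intervals for counting error, and the *Col6a1*/*Col6a2* ratio is above 1.1 in the 4 untreated mice and below 1 in the 4 treated mice.

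The order of the chains per kb of transcript differed between the groups. In WT mice at day 0 it was led by *Col1a1* at 104 ± 107 CPM per kb (SD, n = 2), *Col1a2* at 83.8 ± 67.2, *Col3a1* at 63.7 ± 6.04 and *Col6a1* at 45.9 ± 7.79, where the spread of the type I chains was as wide as their distance from the others. In null mice at day 0 the leading chains were *Col3a1* at 46.3 ± 10.5 CPM per kb (SD, n = 2), *Col6a1* at 36.5 ± 0.064, *Col1a2* at 31.1 ± 1.18 and *Col4a1* at 23.5 ± 5.21. *Col3a1* and *Col6a1* did not differ beyond their spread in that group. In WT mice at day 15 the order opened with *Col4a1* at 137 ± 1.46 CPM per kb (SD, n = 2), followed by *Col1a1* at 118 ± 23.7, *Col3a1* at 114 ± 9.03 and *Col1a2* at 111 ± 11.0, no neighbours of which differed beyond their spread. In null mice at day 15, *Col1a2* at 56.2 ± 41.1 CPM per kb (SD, n = 2), *Col6a2* at 55.7 ± 37.0, *Col1a1* at 51.3 ± 36.5, *Col6a1* at 49.0 ± 30.4 and *Col4a1* at 48.9 ± 33.9 had no order beyond their spread.

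Fold changes of the 31 chains with a mean normalized count above 5 come from edgeR's quasi-likelihood test, with Benjamini-Hochberg adjustment over all 14371 tested genes. A chain is said to have passed if its adjusted p was under 0.05 and its log2 fold change above 1 or below -1, the threshold of the study. Where a call was lost without a library or with another setting, the adjusted p of edgeR's test then obtained stands in brackets. Between the genotypes at day 15, *Col18a1* was the single chain that passed, higher in WT mice, where 1.25% of all tested genes passed higher and 1.91% lower. Of the 31 chains 21 had a log2 fold change above 0, with a median of 0.97 (0.04 over all tested genes) and a range from -0.73 to 2.49. An unadjusted p under 0.05 was found for 9 chains (3332 of all 14371 tested genes), and DESeq2 called 6 (1208 of all), each of these chains higher in WT mice. Both WT mice exceeded both null mice in 16 chains (28.6% of all tested genes did) and lay below them in 3 (26.3%). The median over the chains was 0.38 without null day 15 mouse 1 and 1.53 without mouse 2 of that group, and without the latter 8 chains and 871 of all tested genes passed, after 455 with all libraries. Without null day 15 mouse 1, 0 chains and 30 genes passed, without WT day 15 mouse 1 or 2, 0 chains and 345 or 19 genes, and without either untreated null mouse, 0 chains and 12 genes. In untreated mice, 0 of 31 chains passed between the genotypes in edgeR, as did 0% of all tested genes higher and 0% lower, 4 chains had an unadjusted p under 0.05 (904 of all), and DESeq2 called 0 (18 of all). There 23 of 31 chains had a log2 fold change above 0, with a median of 0.47 (0.01 over all tested genes) and a range from -1.09 to 2.31. The median was 0.20 without WT day 0 mouse 1 and 0.20 with offsets for GC content and length. The untreated WT mice lay above both null mice in 15 chains (18.4% of all tested genes) and below them in 4 (18.7%).

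Between day 0 and day 15 in WT mice, 6 chains rose (3.47% of all tested genes did) and 0 fell (4.27%), namely *Col5a3*, *Col27a1*, *Col4a1*, *Col4a2*, *Col16a1* and *Col18a1*. Of the 31 chains, 12 had an unadjusted p under 0.05 (3965 of all tested genes), DESeq2 called 8 higher and 1 lower (1737 of all), and the median log2 fold change was 0.87 (0.0046 over all tested genes), with a range from -1.67 to 3.29. Both day 15 mice lay above both day 0 mice in 18 chains (31.0% of all tested genes) and below them in 3 (31.5%). Leaving out WT day 0 mouse 1 moved this median to 1.30. In null mice, 3 chains rose from day 0 to day 15 (5.30% of all tested genes did) and 0 fell (6.48%), namely *Col27a1*, *Col16a1* and *Col6a4*. There 11 chains had an unadjusted p under 0.05 (4686 of all), DESeq2 called 7 higher and 1 lower (2203 of all), and the median was 0.53 (0.05 over all tested genes), with a range from -1.68 to 2.17. The treated null mice lay above both untreated null mice in 11 chains (31.0% of all tested genes) and below them in 4 (30.3%). Without null day 15 mouse 1 this median was 0.95, and without mouse 2 it was 0.09. The interaction is the day 15 over day 0 change in WT mice minus that in null mice. For it 0 chains passed in edgeR (0.00696% of all tested genes passed higher and 0% lower), 3 chains had an unadjusted p under 0.05 (1239 of all), and DESeq2 called 0 (120.0 of all). Its median over the chains was 0.01, and 0.76 either without WT day 0 mouse 1 or without null day 15 mouse 2. A chain that passed in a single genotype and missed the threshold in the other is therefore not shown to differ between them.

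**Figure D2:**
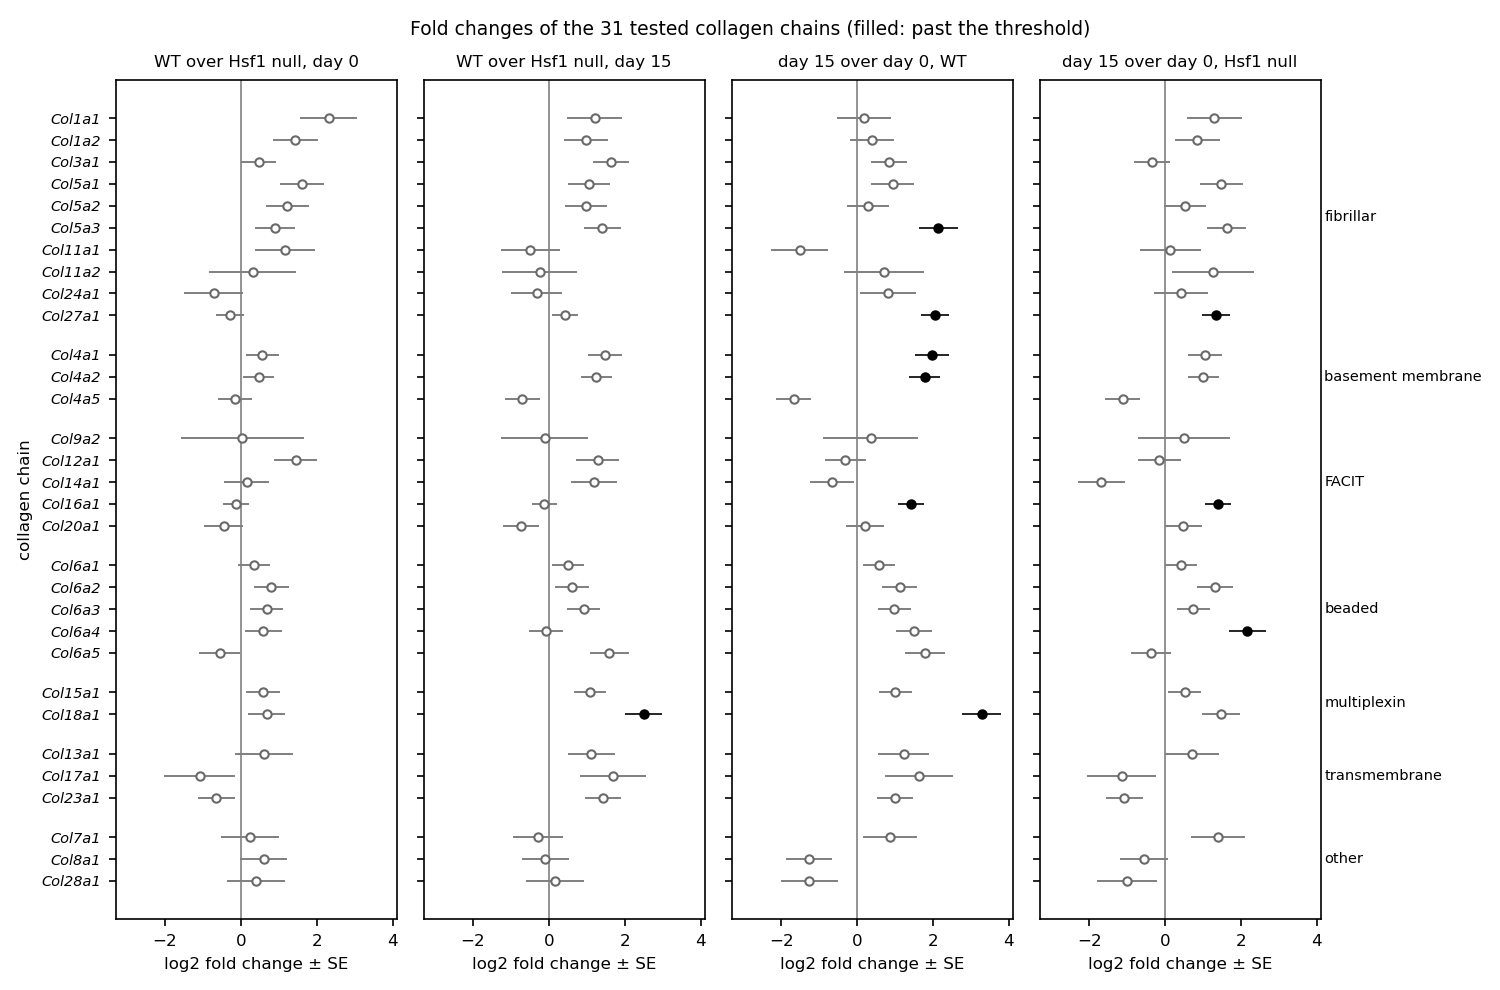
Each point is the log2 fold change of a tested collagen chain with its standard error, by class, for the genotypes on each day and for the days in each genotype. Filled points passed the threshold, which are 0 at day 0, 1 at day 15, 6 in WT mice and 3 in null mice.

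Type I collagen, the main tension-bearing fibril, consists of the chains *Col1a1* and *Col1a2*. *Col1a1* (chr11:94936224-94953042) was at 1065 and 166 CPM (WT) and 139.8 and 108 (null) at day 0 and 802 and 603 (WT) and 152 and 457 (null) at day 15. *Col1a2* (chr6:4504814-4541544) was at 702 and 194 CPM (WT) and 171 and 162 (null) at day 0 and 634 and 550.5 (WT) and 145 and 456 (null) at day 15. WT day 0 mouse 1 was the highest of all 8 mice in both chains. Untreated null mice were the low group together with null day 15 mouse 1, and WT mice lay above null mice on each day without overlap. Between the genotypes at day 15 the log2 fold change of *Col1a1* was 1.21 (SE 0.72, adjusted p = 0.34) and that of *Col1a2* 0.98 (SE 0.59, adjusted p = 0.345). These were 0.61 and 0.37 without null day 15 mouse 1, and 2.21 and 2.03 without mouse 2. At day 0 it was 2.31 (SE 0.75, adjusted p = 0.775) for *Col1a1* and 1.43 (SE 0.60, adjusted p = 0.775) for *Col1a2*, with unadjusted p of 0.0113 and 0.0378. Without WT day 0 mouse 1 these values were 0.42 and 0.22. From day 0 to day 15 in WT mice, *Col1a1* had a log2 fold change of 0.19 (SE 0.71, adjusted p = 0.889), which was 2.08 without WT day 0 mouse 1 and -0.58 without mouse 2. *Col1a2* had 0.40 (SE 0.59, adjusted p = 0.696) in that comparison, 1.61 without mouse 1 and -0.23 without mouse 2. In null mice the corresponding values were 1.29 (SE 0.73, adjusted p = 0.245) for *Col1a1* and 0.85 (SE 0.59, adjusted p = 0.346) for *Col1a2*, 1.88 and 1.46 without null day 15 mouse 1 and 0.29 and -0.20 without mouse 2.

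Type III collagen is built of *Col3a1* alone and is abundant in distensible tissues such as the gut wall. *Col3a1* (chr1:45311538-45349706) was at 378 and 331 CPM (WT) and 216 and 299 (null) at day 0 and 598 and 669 (WT) and 89.2 and 318 (null) at day 15. WT mice at day 15 were highest, and null day 15 mouse 1 was the lowest of all 8 mice. The log2 fold change between the genotypes was 1.64 (SE 0.48, adjusted p = 0.0881) at day 15 and 0.46 (SE 0.47, adjusted p = 0.884) at day 0, and between the days it was 0.84 in WT mice (adjusted p = 0.282) and -0.34 in null mice (adjusted p = 0.658). None of these 4 passed in edgeR. At day 15 DESeq2 called *Col3a1* higher in WT mice, as did edgeR without null day 15 mouse 2 (2.83, adjusted p = 0.00598), while without mouse 1 of that group the value was 0.99.

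The type V chains *Col5a1*, *Col5a2* and *Col5a3* form minor collagens that copolymerize with type I collagen and limit the width of its fibrils. *Col5a1* (chr2:27886425-28039514) was at 184 and 79.4 CPM (WT) and 43.6 and 43.8 (null) at day 0 and 300.5 and 209 (WT) and 49.6 and 195 (null) at day 15. *Col5a2* (chr1:45374321-45503282) was at 142 and 47.6 CPM (WT) and 38.8 and 44.2 (null) at day 0 and 112 and 123 (WT) and 27.0 and 92.3 (null) at day 15. *Col5a3* (chr9:20770050-20815067) was at 14.3 and 13.5 CPM (WT) and 10.0 and 3.95 (null) at day 0 and 84.6 and 38.7 (WT) and 15.5 and 31.0 (null) at day 15. WT mice lay above null mice on both days in each of the 3 chains, and *Col5a3* had its highest level in WT day 15 mouse 1. *Col5a3* rose from day 0 to day 15 in WT mice, with a log2 fold change of 2.14 (SE 0.51, adjusted p = 0.0347), and both treated mice lay above both untreated mice. This call was lost without either WT day 0 mouse (0.116, 0.178) or either WT day 15 mouse (0.135, 0.051), and the log2 fold change ranged from 1.47 to 2.598 over the libraries left out. In null mice the log2 fold change of *Col5a3* was 1.63 (SE 0.52, adjusted p = 0.0634), also without overlap of the days. It was called by DESeq2 and, in edgeR, with counts thinned to the smallest library (adjusted p = 0.0388) and without WT day 15 mouse 2 (adjusted p = 0.0468), and the interaction was 0.51 (SE 0.71, adjusted p = 0.865). At day 15 *Col5a3* had 1.40 (SE 0.49, adjusted p = 0.129) between the genotypes, where DESeq2 called it higher in WT mice. With a mouse left out this value ran from 0.73 to 1.99. *Col5a1* had a log2 fold change of 1.06 (SE 0.56, adjusted p = 0.285) between the genotypes at day 15, and 2.36 (adjusted p = 0.0334) without null day 15 mouse 2 but 0.38 without mouse 1. At day 0 it had 1.60 (SE 0.58, adjusted p = 0.775) with an unadjusted p of 0.0193, which was 0.86 without WT day 0 mouse 1. Between the days *Col5a1* had 0.94 in WT mice (adjusted p = 0.303), 1.68 without WT day 0 mouse 1 and 0.49 without mouse 2. In null mice *Col5a1* had 1.49 (adjusted p = 0.107), which DESeq2 called, 2.16 (adjusted p = 0.0403) without null day 15 mouse 1 and 0.18 without mouse 2. *Col5a2* passed in none of the 5 comparisons, with 0.97 at day 15 (adjusted p = 0.321), 0.33 without null day 15 mouse 1 and 2.12 without mouse 2. At day 0 it had 1.22 (adjusted p = 0.794), and 0.20 without WT day 0 mouse 1.

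*Col27a1* encodes the chain of type XXVII collagen, a fibrillar homotrimer best known from cartilage. *Col27a1* (chr4:63214004-63334991) was at 10.0 and 5.56 CPM (WT) and 10.2 and 9.70 (null) at day 0 and 38.9 and 29.1 (WT) and 21.1 and 29.4 (null) at day 15. All 4 treated mice lay above all 4 untreated mice, and the genotypes overlapped on both days. It rose in WT mice with a log2 fold change of 2.06 (SE 0.37, adjusted p = 0.0145) and in null mice with 1.34 (SE 0.36, adjusted p = 0.041). The interaction was 0.72 (SE 0.51, adjusted p = 0.716), and the genotypes differed by 0.43 at day 15 (adjusted p = 0.482) and -0.29 at day 0 (adjusted p = 0.917). In WT mice the call was lost without WT day 0 mouse 2 (0.101), with a log2 fold change of 1.78. In null mice it was lost without either null day 0 mouse (0.102, 0.224), WT day 15 mouse 1 (0.0533) or either null day 15 mouse (0.0679, 0.136). *Col27a1* also missed the threshold with offsets for GC content and length (0.136), counts thinned to the smallest library (0.0594) or only the groups compared in the model (0.0511).

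Among the 10 tested fibrillar chains as a class, 0 passed between the genotypes at day 15 in edgeR (1.25% of all tested genes passed higher and 1.91% lower), 2 had an unadjusted p under 0.05 (3332 of all), and DESeq2 called 2 (1208 of all). Of them 7 had a log2 fold change above 0, with a median of 0.97. At day 0, 0 passed in edgeR, 3 had an unadjusted p under 0.05 (904 of all), DESeq2 called 0, and 8 were above 0 with a median of 1.02. Treated WT mice had 9 of 10 chains above their day 0 level with a median of 0.77, 2 of which passed (3.47% of all rose). Treated null mice had 9 of 10 above it with a median of 1.06, 1 of which passed (5.30% of all rose). These values depended on single mice. With a mouse left out, the change in null mice ran from 0.29 to 1.88 for *Col1a1* and -0.20 to 1.46 for *Col1a2*. It ran from -1.53 to 0.31 for *Col3a1*, 0.18 to 2.16 for *Col5a1* and -0.61 to 1.16 for *Col5a2*. The genotype difference at day 0 ran from 0.42 to 3.08 for *Col1a1*, 0.22 to 2.06 for *Col1a2* and 0.20 to 1.76 for *Col5a2*. The remaining tested fibrillar chains were near the detection limit, with at most 27 counts per mouse for *Col11a1*, 25 for *Col11a2* and 29 for *Col24a1*, and no adjusted p under 0.219. *Col2a1*, the chain of cartilage type II collagen, was not tested, since 33 of its counts came from WT day 0 mouse 1 and at most 1 from each other mouse.

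*Col4a1* and *Col4a2* form the type IV heterotrimer that is present in nearly all basement membranes. *Col4a1* (chr8:11198423-11312826) was at 278 and 182 CPM (WT) and 179.5 and 131 (null) at day 0 and 899 and 912 (WT) and 165 and 482 (null) at day 15. *Col4a2* (chr8:11312805-11449287) was at 188 and 161 CPM (WT) and 151 and 99.2 (null) at day 0 and 665 and 536 (WT) and 141 and 367 (null) at day 15. Both WT mice at day 15 lay above all 6 other mice in both chains, null day 15 mouse 2 came next, and null day 15 mouse 1 was in the range of the untreated mice. From day 0 to day 15 in WT mice *Col4a1* rose with a log2 fold change of 1.97 (SE 0.46, adjusted p = 0.0315) and *Col4a2* with 1.78 (SE 0.42, adjusted p = 0.0326). The call of *Col4a1* was lost without either WT day 0 mouse (0.0636, 0.202), either null day 0 mouse (0.0549, 0.0552) or either WT day 15 mouse (0.0604, 0.111). *Col4a1* also missed the threshold with offsets for GC content and length (0.0517). That of *Col4a2* was lost without either WT day 0 mouse (0.0943, 0.19), either null day 0 mouse (0.0512, 0.0515) or either WT day 15 mouse (0.0819, 0.0934). *Col4a2* also missed the threshold with offsets for GC content and length (0.065). Their log2 fold changes over the libraries left out ranged from 1.72 to 2.32 and from 1.62 to 1.93. In null mice the days overlapped in both chains, with 1.06 (SE 0.45, adjusted p = 0.133) for *Col4a1* and 1.01 (SE 0.41, adjusted p = 0.12) for *Col4a2*, and the interaction of *Col4a1* was 0.92 (SE 0.63, adjusted p = 0.707). Both chains were called in this comparison without null day 15 mouse 1 (1.63 and 1.55), and without mouse 2 they had 0.09 and 0.17.

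At day 15 *Col4a1* had a log2 fold change between the genotypes of 1.48 (SE 0.45, adjusted p = 0.0934) and *Col4a2* of 1.24 (SE 0.41, adjusted p = 0.114), both without overlap of the genotypes. DESeq2 called both higher in WT mice, as did edgeR without null day 15 mouse 2 (2.45 and 2.09), whereas without mouse 1 the values were 0.90 and 0.70. At day 0 they were 0.57 (adjusted p = 0.849) and 0.47 (adjusted p = 0.861). Of the 3 tested chains of this class, 0 passed at either day between the genotypes in edgeR, 2 had an unadjusted p under 0.05 at day 15 (3332 of all 14371 genes) and 0 at day 0 (904), and DESeq2 called 2 and 0 (1208 and 18 of all). *Col4a5*, which pairs with *Col4a6* in the basement membranes of smooth muscle and was chosen for mention after its values were seen, went the other way. *Col4a5* was at 13.1 and 6.35 CPM (WT) and 10.0 and 12.6 (null) at day 0 and 3.04 and 3.27 (WT) and 4.81 and 5.48 (null) at day 15. All 4 treated mice lay below all 4 untreated mice, with a log2 fold change of -1.67 (SE 0.46, adjusted p = 0.0544) in WT and -1.12 (SE 0.46, adjusted p = 0.124) in null mice, neither of which passed in edgeR, while DESeq2 called the WT value lower. The 8 smooth muscle markers, *Acta2* among them, also lay below their day 0 level in treated WT mice, and their part in this difference was not tested. *Col4a6* was not tested, with at most 6 counts in a mouse.

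Among FACITs, *Col12a1* and *Col14a1* encode homotrimers that bind to the surface of type I fibrils, and *Col16a1* encodes a fibril-associated chain found near basement membranes and in smooth muscle. *Col12a1* (chr9:79598991-79718831) was at 143 and 38.5 CPM (WT) and 29.2 and 39.5 (null) at day 0 and 54.5 and 95.4 (WT) and 19.2 and 42.0 (null) at day 15. *Col16a1* (chr4:130047840-130099283) was at 20.1 and 21.4 CPM (WT) and 25.0 and 19.8 (null) at day 0 and 66.3 and 44.1 (WT) and 43.0 and 77.0 (null) at day 15. *Col12a1* was highest in WT day 0 mouse 1, whereas *Col16a1* was higher in each of the 4 treated mice than in each of the 4 untreated mice, with overlapping genotypes on both days. *Col16a1* rose from day 0 to day 15 by a log2 fold change of 1.42 (SE 0.35, adjusted p = 0.0366) in WT and 1.41 (SE 0.34, adjusted p = 0.0304) in null mice, with an interaction of 0.0079 (adjusted p = 0.999). In WT mice this call was lost without either WT day 0 mouse (0.138, 0.174), either null day 0 mouse (0.0558, 0.0561) or either WT day 15 mouse (0.133, 0.0789). *Col16a1* also missed the threshold with offsets for GC content and length (0.0828) or counts thinned to the smallest library (0.27), where thinning gave 0.84. In null mice it was lost without either null day 0 mouse (0.0601, 0.22) or null day 15 mouse 2 (0.125). *Col16a1* also missed the threshold with offsets for GC content and length (0.136) or counts thinned to the smallest library (0.0566). Between the genotypes its log2 fold change was -0.12 at day 15 (adjusted p = 0.862), and 0.36 without null day 15 mouse 2, and it was -0.13 at day 0 (adjusted p = 0.962).

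For *Col12a1* the log2 fold change between the genotypes was 1.29 (SE 0.57, adjusted p = 0.208) at day 15 and 1.44 (SE 0.57, adjusted p = 0.775) at day 0 (unadjusted p of 0.0467 and 0.0313). The day 0 value was 0.18 without WT day 0 mouse 1. Between the days it was -0.30 in WT mice (adjusted p = 0.757), turning to 0.96 without WT day 0 mouse 1, and -0.15 in null mice (adjusted p = 0.88). *Col14a1*, named after its values were seen, was at 19.99 and 12.7 CPM (WT) and 13.0 and 17.2 (null) at day 0 and 14.3 and 6.86 (WT) and 1.86 and 7.36 (null) at day 15. Its lowest level was that of null day 15 mouse 1, and both treated null mice lay below both untreated ones, with a log2 fold change of -1.68 (SE 0.61, adjusted p = 0.0934) that DESeq2 called lower. Of the 5 tested FACIT chains, 0 passed between the genotypes on either day in edgeR, 1 had an unadjusted p under 0.05 on each day (904 of all 14371 genes at day 0 and 3332 at day 15), DESeq2 called 0 on both, and the median log2 fold change was -0.12 at day 15 and 0.04 at day 0. *Col9a2* and *Col20a1*, both with at most 53 counts in a mouse, passed in no comparison. Not tested were *Col9a3* with at most 9 counts in a mouse, *Col19a1* with 4 and 12 counts in mouse 1 of WT and null day 0 and 0 in the other 6 mice, and *Col22a1* with at most 19.

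Type VI collagen is assembled from *Col6a1*, *Col6a2* and a further chain, which is *Col6a3* in most tissues, with *Col6a4* and *Col6a5* as its relatives. *Col6a1* (chr10:76708792-76726168) was at 211 and 166 CPM (WT) and 149.9 and 149 (null) at day 0 and 365 and 202 (WT) and 113 and 289 (null) at day 15. *Col6a2* (chr10:76595762-76623630) was at 197 and 165 CPM (WT) and 114 and 93.4 (null) at day 0 and 526 and 266 (WT) and 137 and 381 (null) at day 15. *Col6a3* (chr1:90765923-90843971) was at 118 and 79.0 CPM (WT) and 60.3 and 63.6 (null) at day 0 and 199 and 193 (WT) and 50.4 and 158 (null) at day 15. In all 3 chains WT mice lay above null mice at day 0, null day 15 mouse 1 was below mouse 2, and at day 15 the genotypes overlapped for *Col6a1* and *Col6a2* but not for *Col6a3*. *Col6a4* (chr9:105989454-106096783) was at 14.7 and 8.73 CPM (WT) and 7.64 and 8.62 (null) at day 0 and 32.1 and 36.8 (WT) and 18.9 and 53.8 (null) at day 15. It was higher in each treated than in each untreated mouse and highest in null day 15 mouse 2. *Col6a4* rose from day 0 to day 15 in null mice, with a log2 fold change of 2.17 (SE 0.49, adjusted p = 0.0247), and had 1.51 (SE 0.47, adjusted p = 0.0743) in WT mice and an interaction of -0.67 (SE 0.66, adjusted p = 0.801). The WT value was called by DESeq2 and, in edgeR, with counts thinned to the smallest library, with only the groups compared and without either null day 15 mouse. The call in null mice was lost without either null day 0 mouse (0.0888, 0.181) or null day 15 mouse 2 (0.0958). *Col6a4* also missed the threshold with offsets for GC content and length (0.0535), and without mouse 2 of the treated null mice the log2 fold change was 1.23.

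The other type VI chains passed in no comparison in edgeR. *Col6a2* had a log2 fold change of 1.13 (SE 0.46, adjusted p = 0.146) from day 0 to day 15 in WT mice. In null mice it had 1.32 (SE 0.46, adjusted p = 0.0835), which DESeq2 called. Between the genotypes at day 15 it had 0.61 (adjusted p = 0.445), and from 0.0362 to 1.53 with a mouse left out. Without null day 15 mouse 2 its value in null mice was 0.40, and without mouse 1 it was 1.88 and passed (adjusted p = 0.0418). *Col6a3* had 0.91 (SE 0.43, adjusted p = 0.237) between the genotypes at day 15, which was 1.96 without null day 15 mouse 2, where it passed (adjusted p = 0.014), and 0.31 without mouse 1. *Col6a1* had 0.50 at day 15 (adjusted p = 0.506) and -0.03 without null day 15 mouse 1. *Col6a5*, named after its values were seen, was at 5.78 and 5.56 CPM (WT) and 6.82 and 10.4 (null) at day 0 and 20.3 and 19.2 (WT) and 3.10 and 9.90 (null) at day 15. The 2 WT mice at day 15 were the highest, without overlap with any other group, and null day 15 mouse 1 was the lowest. Its log2 fold change was 1.59 (SE 0.51, adjusted p = 0.108) between the genotypes at day 15 and 1.79 (SE 0.53, adjusted p = 0.0635) between the days in WT mice, both called by DESeq2 and not by edgeR, and -0.36 in null mice (adjusted p = 0.669). The WT change passed in edgeR with offsets for GC content and length, with only the groups compared and without either null day 15 mouse. The genotypes differed by 2.66 without null day 15 mouse 2 (adjusted p = 0.0266) and by 0.99 without mouse 1. The interaction of *Col6a5* was 2.15 (SE 0.74, adjusted p = 0.476) with an unadjusted p of 0.0157. Of the 5 tested chains of this class, 0 passed between the genotypes on either day in edgeR, 1 had an unadjusted p under 0.05 at day 15 (3332 of all 14371 genes) and 0 at day 0 (904), DESeq2 called 1 and 0 (1208 and 18 of all), and the median log2 fold change was 0.61 and 0.59. All 5 lay above their day 0 level in treated WT mice, with a median of 1.13, and 4 of 5 in null mice, with a median of 0.75. The null values depended on single mice. With a mouse left out they ran from -0.41 to 0.95 for *Col6a1*, 0.40 to 1.88 for *Col6a2* and -0.30 to 1.35 for *Col6a3*. For *Col6a4* they ran from 1.23 to 2.74 and for *Col6a5* from -1.43 to 0.24.

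The multiplexins *Col15a1* and *Col18a1* carry glycosaminoglycan chains, link basement membranes to the matrix below them, and release endostatin-like fragments from their C-terminal ends. *Col15a1* (chr4:47208161-47313167) was at 48.0 and 45.7 CPM (WT) and 36.5 and 25.2 (null) at day 0 and 119 and 70.9 (WT) and 24.4 and 65.1 (null) at day 15. *Col18a1* (chr10:77052178-77166548) was at 44.7 and 31.4 CPM (WT) and 28.0 and 19.4 (null) at day 0 and 482 and 269.6 (WT) and 32.7 and 101 (null) at day 15. WT mice lay above null mice on both days in both chains, and the 2 WT mice at day 15 were the highest of all 8. In *Col18a1* the lower WT mouse at day 15 was still more than 2 times as high as the higher null mouse. *Col18a1* rose from day 0 to day 15 in WT mice by a log2 fold change of 3.29 (SE 0.52, adjusted p = 0.0103), and in null mice, also without overlap of the days, it had 1.47 (SE 0.50, adjusted p = 0.0747), which DESeq2 called. The call in WT mice was lost without WT day 0 mouse 2 (0.0735), with a log2 fold change of 3.09. Without null day 15 mouse 2 the value in null mice was 0.44, and without mouse 1 it was 2.06 and passed. The interaction was 1.82 (SE 0.69, adjusted p = 0.51) with an unadjusted p of 0.0249 and was not called by DESeq2 either.

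*Col18a1*, the single chain past the threshold between the genotypes at day 15 (log2 fold change 2.49, adjusted p = 0.0331 in edgeR), had 0.67 at day 0 (adjusted p = 0.845). The day 15 call was lost without either null day 0 mouse (0.0741, 0.0741), either WT day 15 mouse (0.0745, 0.0733) or null day 15 mouse 1 (0.142). *Col18a1* also missed the threshold with only the groups compared in the model (0.0999). Over the libraries left out its log2 fold change ranged from 1.89 without null day 15 mouse 1 to 3.52 without mouse 2 (adjusted p = 0.00711), and DESeq2 gave an adjusted p of 3.56e-06. *Col15a1* had 1.08 (SE 0.43, adjusted p = 0.172) between the genotypes at day 15, 0.59 at day 0 (adjusted p = 0.847), 1.01 (SE 0.43, adjusted p = 0.163) between the days in WT and 0.52 in null mice (adjusted p = 0.44). Without null day 15 mouse 2 its day 15 value was 1.96 and passed (adjusted p = 0.0322), and without mouse 1 it was 0.53. At day 0, 0 of the 2 multiplexins passed in edgeR, 0 had an unadjusted p under 0.05, and DESeq2 called 0.

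**Figure D3:**
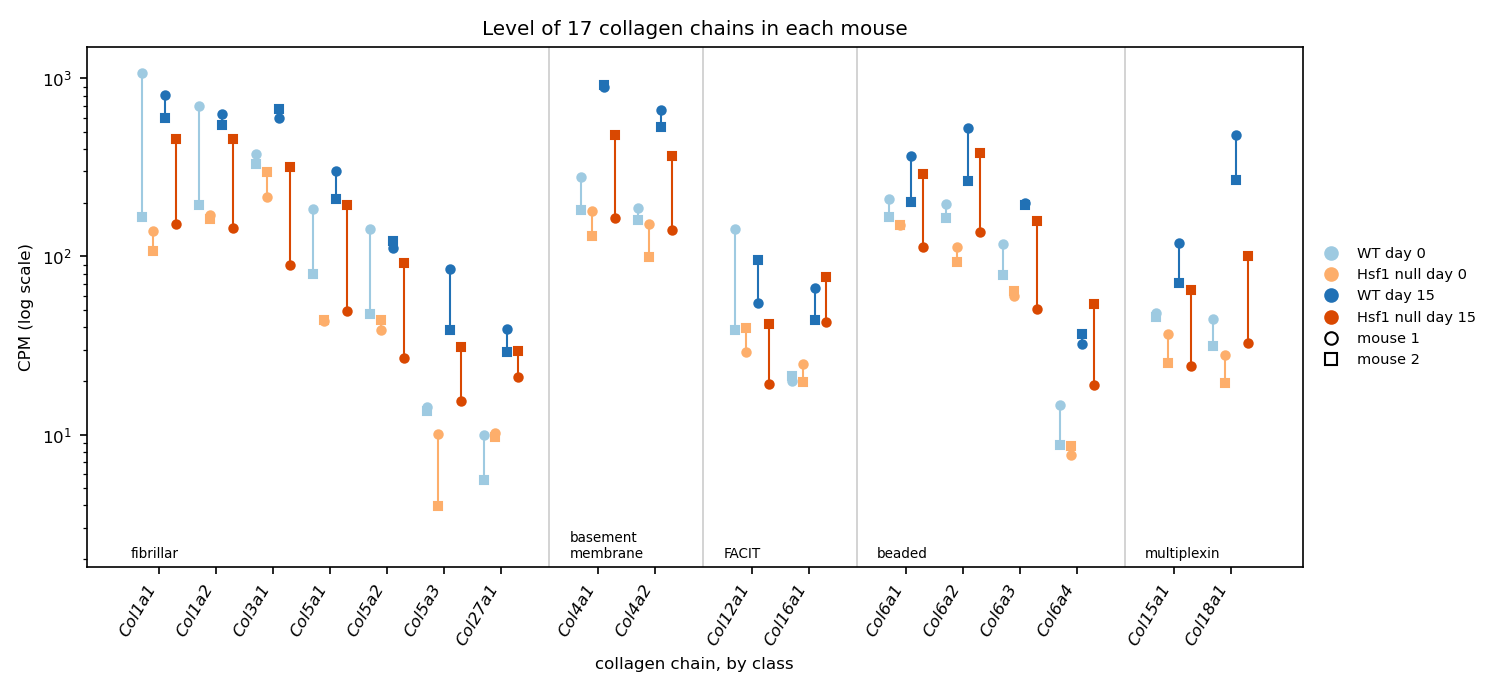
Level of the 17 chains with a mean of at least 20 CPM or a call in at least 1 comparison, in CPM on a log axis, for each mouse, where a circle is mouse 1, a square mouse 2 and the line joins the 2 mice of a group. WT mice at day 15 lie above the other 6 mice in *Col3a1*, *Col5a1*, *Col5a3*, *Col4a1*, *Col4a2*, *Col6a3*, *Col15a1* and *Col18a1*. In these WT mice *Col18a1* is at 482 and 269.6 CPM.

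Transmembrane collagens span the cell membrane, such as *Col17a1* of the hemidesmosome, *Col13a1* of cell adhesions and *Col23a1*. The chains named here were chosen after their values were seen. *Col23a1* was at 4.21 and 3.97 CPM (WT) and 5.58 and 7.55 (null) at day 0 and 10.0 and 6.44 (WT) and 2.48 and 3.61 (null) at day 15. At day 15 both WT mice lay above both null mice, and at day 0 both lay below them. The log2 fold change between the genotypes was 1.43 (SE 0.47, adjusted p = 0.115) at day 15 and -0.65 (SE 0.49, adjusted p = 0.847) at day 0, and the days differed by 1.00 in WT (adjusted p = 0.202) and -1.07 in null mice (adjusted p = 0.156). *Col17a1* and *Col13a1* had at most 23 and 32 counts in a mouse and log2 fold changes of 1.68 (adjusted p = 0.278) and 1.12 (adjusted p = 0.312) between the genotypes at day 15. All 3 tested chains were above 0 between the genotypes at day 15, with a median of 1.43, and 1 of 3 at day 0, with a median of -0.65. In edgeR 0 of them passed at day 15 and 0 at day 0, an unadjusted p under 0.05 was found for 1 and 0 (3332 and 904 of all 14371 genes), and DESeq2 called 0 on both days. Between the days 0 of 3 passed in either genotype in edgeR, 0 had an unadjusted p under 0.05, and DESeq2 called 0. *Col25a1* was not tested, with at most 19 counts in a mouse.

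Outside the 6 classes, *Col7a1* forms the anchoring fibrils below epithelia, *Col8a1*, *Col8a2* and *Col10a1* are short chains of network collagens, and *Col28a1* is a chain found around glia. *Col8a1*, named after its values were seen, was at 19.3 and 3.97 CPM (WT) and 7.64 and 8.62 (null) at day 0 and 5.22 and 4.96 (WT) and 6.82 and 4.15 (null) at day 15. The genotypes overlapped on both days. *Col7a1* had between 1 and 46 counts and *Col28a1* between 9 and 26 counts in a mouse. The size of difference that can be detected at such counts was not tested. Of the 3 tested chains 0 passed in any of the 5 comparisons in edgeR, 0 had an unadjusted p under 0.05, and DESeq2 called 0. *Col8a2* and *Col10a1* were not tested, with at most 11 and 13 counts in a mouse. In all, 8 of the 39 chains were not tested, and no fold is given for them.

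Chains that assemble into the same molecule were compared with each other as a ratio of counts per kb, with 95% exact intervals for counting error. The *Col6a1*/*Col6a2* ratio was 1.21 (1.14 to 1.29) and 1.14 (0.993 to 1.31) in WT and 1.50 (1.40 to 1.61) and 1.82 (1.55 to 2.13) in null mice at day 0. Treated mice had 0.788 (0.757 to 0.820) and 0.861 (0.811 to 0.914) in WT and 0.932 (0.844 to 1.03) and 0.861 (0.814 to 0.911) in null mice. All 4 treated mice thus lay below all 4 untreated mice, a pattern noticed after the values were seen and not tested. The *Col1a1*/*Col1a2* ratio was 1.37 and 0.771 (WT) and 0.737 and 0.600 (null) at day 0 and 1.14 and 0.988 (WT) and 0.940 and 0.904 (null) at day 15. The interval of WT mouse 2 overlapped those of both null mice at day 0 (0.675 to 0.880 against 0.691 to 0.786 and 0.517 to 0.696) and that of null mouse 1 at day 15 (0.951 to 1.03 against 0.859 to 1.03). The *Col4a1*/*Col4a2* ratio stayed between 1.10 and 1.66 in all 8 mice. The *Col5a1*/*Col5a2* ratio was 1.02 and 1.31 (WT) and 0.887 and 0.782 (null) at day 0, and 2.12 and 1.35 (WT) and 1.45 and 1.67 (null) at day 15. In this pair all 4 treated mice lay above all 4 untreated mice, which was not tested either. Its intervals in WT mouse 2 of day 0 (1.04 to 1.66) and of day 15 (1.25 to 1.45) overlapped.

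Several chains are neighbours in the genome, by the positions in GENCODE M21 (GRCm38, that is mm10). *Col4a1* and *Col4a2* lie head to head on opposite strands of chromosome 8, where their exons share 22 bases. *Col3a1* and *Col5a2* lie 24.6 kb apart on opposite strands of chromosome 1. *Col6a2* and *Col6a1* lie 85.2 kb apart on the same strand of chromosome 10, with *Col18a1* 326 kb beyond *Col6a1*. *Col18a1* passed between the genotypes at day 15, and its chromosome 10 neighbours *Col6a1* and *Col6a2* had log2 fold changes of 0.50 and 0.61. *Hsf1* itself is on chromosome 15, 4.44 Mb from *Col22a1*, 20.96 Mb from *Col14a1* and 21.5 Mb from *Col2a1*. Reads can be counted on 2 genes where exons overlap, as they also do for *Col10a1* and *Nt5dc1* (18 bases) and for *Col9a3* and *Tcfl5* (234).

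Of the 39 chains, 32 had a RefSeq promoter entry (GRCm38.p6), with 34 windows of 250 bases before the transcript start, and *Col12a1*, *Col14a1*, *Col1a1*, *Col22a1*, *Col2a1*, *Col5a2* and *Col9a3* had none. The windows were searched on both strands for GAANNTTC or TTCNNGAA, the letters of paired heat shock repeats to which HSF1 binds, for CCAAT, for GGGCGG and for TATAAA. A heat shock pair was present in 2 of the 34 collagen windows (5.88%), those of *Col17a1* and *Col4a5*, and in 12.8% of all 32851 promoter windows. CCAAT was present in 12 collagen windows (35.3%, against 33.8% of all windows), and GGGCGG in 21 (61.8%, against 32.7%). TATAAA was present in 5 (14.7%), against 4063 of all 32851. A match is a description of the letters, and their absence says only that they are not in this window. The windows of 3 chains that rose in WT mice between the days are printed to show what these promoters hold, with every match in capitals, 5′ to 3′ on the strand of the gene. They are chr4:63215162-63215411 on the plus strand for *Col27a1*, inside the annotated span of the gene, chr9:20815068-20815317 on the minus strand for *Col5a3* and chr10:77166549-77166780 on the minus strand for *Col18a1*, shortened to 232 bases at the annotated start of the gene. None of the 3 holds a heat shock pair, *Col27a1* holds GGGCGG, and *Col5a3* and *Col18a1* hold both CCAAT and GGGCGG. A further window of *Col18a1*, chr10:77113706-77113955, holds none of the letters searched and is not printed, nor are those of *Col4a1*, *Col4a2* and *Col16a1*, which overlap exons.
Col27a1: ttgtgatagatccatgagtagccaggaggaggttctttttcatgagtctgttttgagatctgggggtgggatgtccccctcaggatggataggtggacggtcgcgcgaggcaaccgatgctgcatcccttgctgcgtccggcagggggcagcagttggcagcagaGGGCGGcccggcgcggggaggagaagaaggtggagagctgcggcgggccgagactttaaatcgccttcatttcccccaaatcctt
Col5a3: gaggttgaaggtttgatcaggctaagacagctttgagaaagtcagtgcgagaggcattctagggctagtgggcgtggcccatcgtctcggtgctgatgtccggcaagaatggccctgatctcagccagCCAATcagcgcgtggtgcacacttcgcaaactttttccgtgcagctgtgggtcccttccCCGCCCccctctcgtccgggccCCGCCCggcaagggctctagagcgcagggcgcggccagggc
Col18a1: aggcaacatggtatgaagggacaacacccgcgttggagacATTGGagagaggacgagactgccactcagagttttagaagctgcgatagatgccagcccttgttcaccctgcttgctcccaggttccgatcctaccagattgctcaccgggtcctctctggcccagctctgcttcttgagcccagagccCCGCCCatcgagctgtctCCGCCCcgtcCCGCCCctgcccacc

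Genes for the folding, modification and export of procollagen in the ER were listed by name, with *Sparc* and the transcription factor gene *Creb3l1* among them. The list held 22 genes in all, and all were tested. Over all 14371 tested genes the median was 0.04 between the genotypes at day 15, 0.01 at day 0, 0.0046 between the days in WT and 0.05 in null mice. Between the genotypes at day 15, 19 of 22 had a log2 fold change above 0, with a median of 0.77, 6 had an unadjusted p under 0.05 (3332 of all tested genes), DESeq2 called 3, and 1 passed in edgeR, higher in WT mice (1.25% of all). That gene was *Plod1*, a lysyl hydroxylase, at 42.0 and 32.6 CPM (WT) and 26.4 and 23.4 (null) at day 0 and 69.9 and 81.2 (WT) and 25.1 and 31.8 (null) at day 15. WT mice at day 15 lay above the other 6 mice, with a log2 fold change of 1.41 (SE 0.26, adjusted p = 0.0276) between the genotypes and 1.01 (SE 0.26, adjusted p = 0.0449) between the days in WT mice, where it rose. The genotype call was lost without either null day 0 mouse (0.0571, 0.0567), WT day 15 mouse 2 (0.144) or null day 15 mouse 1 (0.185). *Plod1* also missed the threshold with only the groups compared in the model (0.0909). The call between the days was lost without either WT day 0 mouse (0.0966, 0.263), either null day 0 mouse (0.0572, 0.0581) or either WT day 15 mouse (0.082, 0.224), or with offsets for GC content and length (0.0892), counts thinned to the smallest library (0.225) or only the groups compared in the model (0.0534). *Serpinh1*, which encodes the collagen-specific chaperone HSP47, was at 381 and 69.9 CPM (WT) and 35.5 and 47.8 (null) at day 0 and 116 and 183 (WT) and 43.0 and 77.7 (null) at day 15. WT mice were above null mice on each day, WT day 0 mouse 1 was far above all others, and the log2 fold change was 1.31 (SE 0.62, adjusted p = 0.237) at day 15 and 2.46 (SE 0.65, adjusted p = 0.775) at day 0. Without WT day 0 mouse 1 the day 0 value was 0.76, and without mouse 2 it was 3.18 and passed (adjusted p = 0.029).

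*P4ha1*, a catalytic subunit of prolyl 4-hydroxylase, was at 48.3 and 50.4 CPM (WT) and 38.7 and 29.8 (null) at day 0 and 41.0 and 62.1 (WT) and 43.6 and 37.4 (null) at day 15. *Plod2*, which hydroxylates lysines of the collagen telopeptides, was at 27.4 and 14.3 CPM (WT) and 14.8 and 24.4 (null) at day 0 and 45.0 and 42.2 (WT) and 7.60 and 19.5 (null) at day 15. *P4ha1* overlapped between the genotypes at day 15, with 0.35 (SE 0.28, adjusted p = 0.483), while both WT mice lay above both null mice in *Plod2*, with 1.68 (SE 0.47, adjusted p = 0.0769) in edgeR and a call by DESeq2. *Plod2* had 2.52 without null day 15 mouse 2 (adjusted p = 0.0313) and 1.15 without mouse 1. *Plod3*, which hydroxylates and glycosylates lysines, was at 72.3 and 43.7 CPM (WT) and 50.8 and 33.4 (null) at day 0 and 114 and 114 (WT) and 103 and 85.6 (null) at day 15. *Mia2*, a cargo receptor of secretion from the ER, was at 7.74 and 7.15 CPM (WT) and 8.13 and 10.4 (null) at day 0 and 6.18 and 4.22 (WT) and 3.72 and 1.87 (null) at day 15. In null mice *Plod3* rose from day 0 to day 15 with 1.14 (SE 0.30, adjusted p = 0.0383) and *Mia2* fell with -1.72 (SE 0.50, adjusted p = 0.0492), each without overlap of the days. The call of *Plod3* was lost without null day 0 mouse 2 (0.251) or either null day 15 mouse (0.12, 0.0666). *Plod3* also missed the threshold with offsets for GC content and length (0.138). That of *Mia2* was lost without any of the 8 libraries, namely either WT day 0 mouse (0.0719, 0.0738), either null day 0 mouse (0.0755, 0.242), either WT day 15 mouse (0.0598, 0.0577) or either null day 15 mouse (0.0711, 0.171). *Mia2* also missed the threshold with DESeq2's size factors (0.0505), no filter on low counts (0.0506), offsets for GC content and length (0.135), counts thinned to the smallest library (0.107) or only the groups compared in the model (0.0726). At day 0, 0 of 22 genes passed between the genotypes in edgeR, 3 had an unadjusted p under 0.05 (904 of all tested genes) and DESeq2 called 0, with 21 of 22 above 0 and a median of 0.46. For the interaction 0 passed in edgeR, 1 had an unadjusted p under 0.05 (1239 of all tested genes) and DESeq2 called 0. Between the days 1 gene rose in WT mice (median 0.23, 3.47% of all rose) and 1 rose and 1 fell in null mice (median 0.18, 5.30% and 6.48% of all).

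Of 10 genes for the cleavage of procollagen propeptides, 9 were in the table and tested. *Mep1a*, the alpha subunit of the epithelial protease meprin, was at 151 and 181 CPM (WT) and 205 and 194 (null) at day 0 and 20.8 and 17.5 (WT) and 182 and 52.3 (null) at day 15. *Adamts14*, a procollagen N-proteinase, was at 3.72 and 1.99 CPM (WT) and 0.657 and 0.359 (null) at day 0 and 10.0 and 7.18 (WT) and 3.72 and 4.01 (null) at day 15. The 2 WT mice at day 15 were the lowest of all mice in *Mep1a* and the highest in *Adamts14*. *Mep1a* was lower in WT than in null mice at day 15, with -2.61 (SE 0.48, adjusted p = 0.0271), and fell from day 0 to day 15 in WT mice, with -3.11 (SE 0.49, adjusted p = 0.0103). The genotype call was lost without either null day 0 mouse (0.0671, 0.0663), either WT day 15 mouse (0.0596, 0.143) or null day 15 mouse 1 (0.097), the last with a log2 fold change of -1.45. *Mep1a* also missed the threshold with only the groups compared in the model (0.0976). Its call between the days was lost without WT day 15 mouse 2 (0.0686). *Adamts14* rose in null mice with 2.72 (SE 0.63, adjusted p = 0.0263), a call lost without either null day 0 mouse (0.0651, 0.169) or either null day 15 mouse (0.0659, 0.0658). *Adamts14* also missed the threshold with offsets for GC content and length (0.0523) or counts thinned to the smallest library (0.0721). In the list as a whole, 1 gene passed lower (1.91% of all tested genes) and 0 higher between the genotypes at day 15 (7 of 9 above 0, median 0.72, 5 with an unadjusted p under 0.05 against 3332 of all, and 1 lower and 0 higher by DESeq2). At day 0, 0 of 9 passed in edgeR, with a median of 0.59. There 2 had an unadjusted p under 0.05 (904 of all tested genes) and DESeq2 called 0 (18 of all). In WT mice 1 fell between the days (median 0.55, 4.27% of all fell) and in null mice 1 rose (median 0.46, 5.30% of all). For the interaction 0 passed in edgeR and 1 had an unadjusted p under 0.05 (1239 of all). DESeq2 called 1 lower (120 of all called), which was *Mep1a*.

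Collagen receptors, 12 genes by name, were all in the table, and 11 were tested, *Mag* being too low. In edgeR 0 of 11 passed in any of the 5 comparisons. An unadjusted p under 0.05 was found for 1 between the genotypes at day 15 (3332 of all 14371) and 0 at day 0 (904). It was found for 1 between the days in WT mice (3965 of all), 1 in null mice (4686) and 0 for the interaction (1239). Of all tested genes 455, 0, 1112, 1692 and 1 passed in edgeR in the same order. DESeq2 called 1 lower at day 15 in null mice (2203 of all called), and 0 in the other 4 comparisons. Medians of the log2 fold change were 0.34 and 0.37 between the genotypes at day 15 and day 0, -0.20 and 0.10 between the days in WT and null mice, and 0.19 for the interaction. *Ddr2*, a receptor tyrosine kinase for fibrillar collagen, was at 85.4 and 38.1 CPM (WT) and 39.9 and 57.5 (null) at day 0 and 49.8 and 53.1 (WT) and 23.6 and 44.4 (null) at day 15. WT and null mice overlapped at day 0 and did not at day 15, where the log2 fold change was 0.60 (SE 0.41, adjusted p = 0.408). With a mouse left out this value ran from 0.20 to 1.12.

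Of 9 genes for the cleavage of collagen outside or inside cells, 7 were in the table and tested, without *Mmp1a* and *Mmp1b*. *Mmp2*, a gelatinase that also cleaves type IV collagen, was at 95.4 and 67.5 CPM (WT) and 65.8 and 73.7 (null) at day 0 and 457 and 260.4 (WT) and 44.5 and 127 (null) at day 15. Both WT mice at day 15 lay above the other 6 mice, and *Mmp2* was higher in WT than in null mice at day 15, with 2.06 (SE 0.46, adjusted p = 0.0446), and rose from day 0 to day 15 in WT mice, with 2.13 (SE 0.46, adjusted p = 0.0265). The genotype call was lost without WT day 0 mouse 2 (0.0529), either null day 0 mouse (0.0851, 0.0849), either WT day 15 mouse (0.11, 0.0901) or null day 15 mouse 1 (0.192). *Mmp2* also missed the threshold with only the groups compared in the model (0.119). The call of *Mmp2* between the days was lost without either WT day 0 mouse (0.063, 0.173), either null day 0 mouse (0.0504, 0.0509) or either WT day 15 mouse (0.0761, 0.0512). *Mmp8*, the neutrophil collagenase, had 6 and 0 counts (WT) and 1 and 1 (null) at day 0 and 51 and 141 (WT) and 0 and 7 (null) at day 15. *Mmp9*, a gelatinase of leukocytes, was at 2.45 and 1.59 CPM (WT) and 2.87 and 1.44 (null) at day 0 and 15.5 and 36.0 (WT) and 1.55 and 12.44 (null) at day 15. *Mmp13*, an interstitial collagenase, was at 3.43 and 1.19 CPM (WT) and 1.81 and 0.359 (null) at day 0 and 7.22 and 73.2 (WT) and 4.03 and 8.96 (null) at day 15. In *Mmp8*, *Mmp9* and *Mmp13* WT day 15 mouse 2 was the highest of all mice, by more than 2 times over WT day 15 mouse 1. They rose from day 0 to day 15 in WT mice, with 4.44 (SE 1.16, adjusted p = 0.045) for *Mmp8*, 3.57 (SE 0.87, adjusted p = 0.0368) for *Mmp9* and 3.92 (SE 1.02, adjusted p = 0.045) for *Mmp13*.

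These 3 calls rest on several libraries. The call of *Mmp8* was lost without either WT day 0 mouse (0.107, 0.199), either null day 0 mouse (0.0723, 0.0731) or WT day 15 mouse 2 (0.228). *Mmp8* also missed the threshold with counts thinned to the smallest library (0.147) or only the groups compared in the model (0.0547) and had 3.34 without WT day 15 mouse 2, while WT day 0 mouse 2 had 0 counts, so that without mouse 1 no fold is given. That of *Mmp9* was lost without either WT day 0 mouse (0.119, 0.186), either null day 0 mouse (0.0637, 0.0642) or WT day 15 mouse 2 (0.172), with a range from 2.85 to 4.06. That of *Mmp13* was lost without either WT day 0 mouse (0.108, 0.219), either null day 0 mouse (0.0723, 0.0724) or WT day 15 mouse 2 (0.39). *Mmp13* also missed the threshold with counts thinned to the smallest library (0.0545) or only the groups compared in the model (0.0947), and without WT day 15 mouse 2 its log2 fold change was 1.48. Between the genotypes at day 15, *Mmp13* had 2.62 (SE 0.92, adjusted p = 0.131) with overlapping genotypes, 3.48 (adjusted p = 0.0283) without WT day 15 mouse 1 and 0.15 without mouse 2, and *Mmp8* and *Mmp9* had 4.26 (SE 1.10, adjusted p = 0.0632) and 1.86 (SE 0.77, adjusted p = 0.182) without overlap. Without null day 15 mouse 2 both passed (adjusted p = 0.0368 and 0.025), with *Mmp9* at 4.04, and without mouse 1 *Mmp9* had 1.04. In this list 1 of 7 genes passed higher (1.25% of all tested genes) and 0 lower (1.91%) at day 15, 7 had an unadjusted p under 0.05 (3332 of all), 6 higher and 1 lower, DESeq2 called 2 higher and 0 lower, and the median was 1.86. At day 0, 0 passed in edgeR, 1 had an unadjusted p under 0.05 (904 of all) and DESeq2 called 0, with a median of 0.24. Between the days 4 rose in WT mice (median 2.13, 3.47% of all tested genes rose). In null mice 0 passed in edgeR, with a median of 1.14. There 1 had an unadjusted p under 0.05 (4686 of all) and DESeq2 called 1 higher (2203 of all called). For the interaction 0 passed in edgeR, 1 had an unadjusted p under 0.05 (1239 of all) and DESeq2 called 0 (median 1.67).

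Marker genes of the cell types that make or border collagen were summed in each mouse, with no collagen gene in any list, and their part in the collagen differences was not tested. Of all tested genes 1.25% passed higher and 1.91% lower between the genotypes at day 15, where 3332 had an unadjusted p under 0.05. Between the days 3.47% rose and 4.27% fell in WT mice, and 5.30% rose and 6.48% fell in null mice. The 8 fibroblast markers summed to 664 and 362 CPM (WT) and 371 and 735 (null) at day 0 and 596 and 781 (WT) and 139 and 377 (null) at day 15. *Dcn* was their top gene in all mice but null day 15 mouse 1, where it was *Fbn1*. The mouse with the lowest collagen share, null day 15 mouse 1, was also the lowest in this sum. Among other mice the orders differed. Null day 0 mouse 2, at 735 CPM, had a collagen share of 0.145%, and WT day 0 mouse 1, at 664 CPM, had 0.417%. All 8 fibroblast markers had a log2 fold change above 0 between the genotypes at day 15, 0 passed in edgeR, 2 had an unadjusted p under 0.05 and DESeq2 called 1. *Dcn* fell between the days in null mice (-2.18). The 8 smooth muscle markers, topped by *Acta2*, summed to 7051 and 9640.2 CPM (WT) and 6894 and 6799 (null) at day 0 and 3539.6 and 2066 (WT) and 5071 and 5898 (null) at day 15. Treated WT mice were the lowest in this sum. Of the 8 genes 6 fell between the days in WT mice (4.27% of all) and 1, *Synpo2*, fell in null mice (6.48%). Between the genotypes at day 15 all 8 had a log2 fold change below 0, and 0 passed in edgeR (1.91% of all passed lower). An unadjusted p under 0.05 was found there for 5 (3332 of all), and DESeq2 called *Actg2* and *Cnn1* lower. The 4 pericyte markers summed to 105 and 103 CPM (WT) and 70.5 and 125 (null) at day 0 and 71.3 and 97.4 (WT) and 36.5 and 37.6 (null) at day 15. *Rgs5* was the top gene in 5 of the mice, *Kcnj8* in WT day 15 mouse 2, *Cspg4* in null day 15 mouse 1 and *Notch3* in null day 15 mouse 2. *Kcnj8* was higher in WT than in null mice at day 15 (2.50), and *Rgs5* fell between the days in null mice (-2.82). The 8 endothelial markers, topped by *Pecam1*, summed to 171 and 109 CPM (WT) and 124 and 145 (null) at day 0 and 334 and 272 (WT) and 81.1 and 156 (null) at day 15. Both treated WT mice lay above all other mice in this sum. So they did in *Col3a1*, *Col5a1*, *Col5a3*, *Col4a1*, *Col4a2*, *Col6a3*, *Col6a5*, *Col15a1* and *Col18a1*, among other chains. All 8 endothelial markers were above 0 between the genotypes at day 15, 1 passed (*Cdh5*, 2.36, 1.25% of all), and *Egfl7* rose between the days in WT mice. Of the 8, 4 had an unadjusted p under 0.05 between the genotypes at day 15 (3332 of all). Between the days 4 did in WT mice (3965) and 4 in null mice (4686). DESeq2 called *Cdh5*, *Pecam1* and *Vwf* higher in WT mice at day 15 (1208 of all called). It called *Egfl7*, *Pecam1* and *Vwf* higher between the days in WT mice (1737) and 0 in null mice (2203).

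The 9 leukocyte markers, topped by *Lyz2*, summed to 842 and 247 CPM (WT) and 303 and 365 (null) at day 0 and 780.3 and 1990.3 (WT) and 209 and 520.4 (null) at day 15. WT day 15 mouse 2 had the highest sum and also the highest *Mmp8*, *Mmp9* and *Mmp13*. *S100a8* was at 0 in null day 0 mouse 2 and null day 15 mouse 1. All 9 leukocyte markers were above 0 between the genotypes at day 15, where *S100a8* and *S100a9* passed (1.25% of all tested genes). *S100a8*, *S100a9* and *Cd3e* rose between the days in WT mice (3.47% of all), and *Cd3e* rose in null mice (5.30%). Of the 9, 7 had an unadjusted p under 0.05 between the genotypes at day 15 (3332 of all). Between the days 6 did in WT mice (3965) and 3 in null mice (4686). DESeq2 called 4 higher in WT mice at day 15 (1208 of all called). Between the days it called 5 higher in WT mice (1737) and 2 in null mice (2203). Of the 10 epithelial markers 0 were above 0 between the genotypes at day 15 and 0 passed in edgeR (1.91% of all passed lower), with 2 at an unadjusted p under 0.05 (3332 of all) and 2 called lower by DESeq2. *Slc26a3* fell between the days in both genotypes, and *Cdx2* rose in null mice. The 4 mesothelial markers, topped by *Msln* in 6 mice and by *Upk3b* in mouse 2 of both untreated groups, summed to 13.3 and 4.76 CPM (WT) and 5.09 and 9.70 (null) at day 0 and 27.7 and 12.3 (WT) and 4.03 and 10.6 (null) at day 15. *Wt1*, *Upk3b* or *Lrrn4* was at 0 in 4 mice. Of the 2 mesothelial markers tested 0 passed in any comparison in edgeR or DESeq2. An unadjusted p under 0.05 was found for 1 between the genotypes at day 15 (3332 of all) and 1 between the days in WT mice (3965). The 4 adipocyte markers, topped by *Cfd*, with *Plin1* level with it in null day 15 mouse 1, summed to 158 and 48.4 CPM (WT) and 41.7 and 0.719 (null) at day 0 and 61.2 and 0.317 (WT) and 0.62 and 145 (null) at day 15. Fat RNA thus varied between the mice of every group and was highest in WT day 0 mouse 1, and *Adipoq* and *Lep* were at 0 in null day 0 mouse 2, WT day 15 mouse 2 and null day 15 mouse 1. Of the 3 adipocyte markers tested 0 passed in any comparison in edgeR or DESeq2, with 0 at an unadjusted p under 0.05.

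The 8 markers of enteric glia and neurons, topped by *Uchl1*, summed to 52.0 and 55.2 CPM (WT) and 72.3 and 65.0 (null) at day 0 and 99.3 and 65.4 (WT) and 160.1 and 101 (null) at day 15. *Chat* was at 0 in null day 15 mouse 2, and *Uchl1* rose between the days in null mice (1.40). Of 8 markers of squamous epithelium, as in the anal canal, 4 were in the table and summed to 5.98 and 5.16 CPM (WT) and 5.75 and 8.62 (null) at day 0 and 9.22 and 14.7 (WT) and 8.38 and 20.998 (null) at day 15. *Krt10* was the top gene in all untreated mice and null day 15 mouse 1, *Krt13* in treated WT mice and *Krt14* in null day 15 mouse 2. *Krt13* rose between the days in both genotypes and *Krt14* in null mice, and *Dsg3* was at 0 in all 4 untreated mice and null day 15 mouse 2. Of 9 skeletal muscle markers 7 were in the table and summed to 27.7 and 36.1 CPM (WT) and 29.4 and 23.7 (null) at day 0 and 30.5 and 18.9 (WT) and 48.7 and 36.4 (null) at day 15, topped by *Ckm* at day 0 and *Acta1* at day 15. *Ckm* fell between the days in WT mice and *Acta1* rose in null mice, while *Myh2* was at 0 in WT day 15 mouse 2 and *Mylpf* in WT day 0 mouse 2.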

How the data were processed

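The authors aligned reads to mm10 with STAR and deposited raw counts per gene symbol, and the counting program, strand setting and annotation are not given in the sources used here. Genotype, day and mouse number were read from the labels. Counts were analysed in R 4.3.3 with edgeR 4.0.16 (TMM, 1 model of the 4 groups, quasi-likelihood test, prior degrees of freedom 5.97) for the 14371 genes whose mean normalized count exceeded 5, in 5 comparisons, with Benjamini-Hochberg adjustment within each. Members and gene lists were chosen with earlier results of these data known. Chains are given with single values if their mean was at least 20 CPM over the 8 samples or if they passed in at least 1 of the 5 comparisons, and others were named after their values were seen. Pathway genes are named if they passed in at least 1 comparison, with *Serpinh1*, *P4ha1*, *Plod2*, *Ddr2* and *Mmp13* named in any case, and *Hsf1* as the targeted gene. The lists are ER folding, propeptide cleavage, receptors, collagen cleavage and 11 lists of cell type markers. Positions are from GENCODE M21 (15276 symbols matched directly, 453 through a synonym and 130 not at all), and promoters from RefSeq. The fits were tested on simulated data, of which no result is given or used here. Alternatives were DESeq2 1.42.0, edgeR with size factors of DESeq2, all genes tested without a filter, the filterByExpr rule, calls on adjusted p alone, a model term for the replicate number, offset terms from natural splines (4 degrees of freedom) of GC content and transcript length with or without that term, thinning to the smallest library, a model of only the groups compared, and each library left out. Normalized counts deposited by the authors were not used.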

Additional observations from a re-analysis of the deposited data

Results flagged for a closer look

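Between day 0 and day 15, *Col23a1*, a transmembrane collagen, had log2 fold changes of opposite sign in the genotypes, neither of which passed. Both WT mice were higher at day 15 than both at day 0 (1.00, adjusted p = 0.202), and both null mice were lower (-1.07, adjusted p = 0.156), and the WT value minus the null value was 2.07 (SE 0.68). It did not pass either, as edgeR's quasi-likelihood test gave adjusted p = 0.454 (unadjusted p of 0.0122), and all 8 levels lay between 2.48 and 10.0 CPM.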

How the results depend on the processing

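With 2 mice per group, a single mouse can move a result, and the tests borrow the spread of other genes. With a mouse left out, the lone sample is assumed to vary like the other groups. The replicate block pairs mice by their numbers in the labels, and the interaction has no version with only the groups compared. No setting gave a call of a collagen chain between the genotypes at day 0 or for the interaction. Pearson's r of the difference between the 2 mice of a group, between groups, ran from -0.296 for WT day 0 with WT day 15 to 0.174 for null day 0 with null day 15.

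Of the chains that passed between the genotypes at day 15 (1 in edgeR), DESeq2 gave 6, the replicate block 0, the block with offsets for GC content and length 0 and only the groups compared 0. Leaving out a mouse gave 0 to 8. Between the days in WT mice (6 chains), the block gave 2, the block with offsets 2 and leaving out a mouse 0 to 8. In null mice (3 chains), DESeq2 gave 8, the offsets 0 and the block with offsets 0, and leaving out a mouse gave 0 to 8. The median log2 fold change over the chains ran from 0.38 to 1.53 between the genotypes at day 15, from 0.20 to 0.64 at day 0, from 0.66 to 1.30 between the days in WT mice, from 0.09 to 0.95 in null mice and from -0.09 to 0.76 for the interaction when a mouse was left out. For *Col18a1* between the genotypes at day 15 the replicate block gave a log2 fold change of 2.46 (adjusted p = 0.0559). The block also ended the calls between the days in WT mice of *Col5a3* (adjusted p = 0.0512), *Col4a1* (0.0512), *Col4a2* (0.0514) and *Col16a1* (0.0545).

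Genes whose direction turned did not pass in that comparison. With offsets for GC content and length, the log2 fold change turned to -0.0046 for *Col4a2*, -0.0022 for *Col6a1* and -0.0227 for *Mmp2* between the genotypes at day 0. It turned to 0.0634 for *Col12a1* and 0.14 for *Ddr2* between the days in WT mice. It turned to 0.16 for *Col12a1*, -0.0184 for *Serpinh1*, 0.0861 for *Plod2*, 0.0622 for *Ddr2*, -0.26 for *Plod1* and -0.11 for *Mmp2* between the days in null mice. It turned to 0.0479 for *Plod3* for the interaction. With those offsets and the replicate block, the log2 fold change turned to -0.018 for *Col4a2* between the genotypes at day 0. It turned to 0.14 for *Ddr2* between the days in WT mice. It turned to 0.12 for *Col12a1*, -0.0188 for *Col6a1*, -0.0289 for *Serpinh1*, 0.079 for *Plod2*, 0.0603 for *Ddr2*, -0.28 for *Plod1* and -0.16 for *Mmp2* between the days in null mice. It turned to 0.0213 for *Col6a2* and 0.0637 for *Plod3* for the interaction. With counts thinned to the smallest library, the log2 fold change turned to 0.28 for *Col16a1* and -0.0265 for *Col6a4* between the genotypes at day 0. It turned to -0.27 for *Plod1* between the days in null mice. It turned to -0.28 for *Col5a3*, -0.60 for *Col16a1*, -0.0701 for *Col6a1* and 0.23 for *Col4a5* for the interaction.

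Leaving out a mouse turned the direction of further log2 fold changes, given as lowest to highest. Between the genotypes at day 15 it ran from -0.49 to 0.36 for *Col16a1*, -0.0347 to 1.33 for *Col6a1* and -0.65 to 0.86 for *Col6a4*. Between the genotypes at day 0 it ran from -0.27 to 0.0668 for *Col16a1*, -0.82 to 0.21 for *Col4a5*, -0.43 to 0.53 for *Plod2*, -0.34 to 0.80 for *Ddr2*, -0.19 to 2.82 for *Mmp13* and -0.0442 to 0.43 for *Mmp2*. There it also ran from -3.26 to 2.19 for *Mmp8* and -0.57 to 0.57 for *Mmp9*. From day 0 to day 15 in WT mice it ran from -0.58 to 2.08 for *Col1a1*, -0.23 to 1.61 for *Col1a2*, -0.26 to 1.30 for *Col5a2*, -0.92 to 0.96 for *Col12a1*, -1.33 to 1.10 for *Serpinh1* and -0.27 to 0.33 for *P4ha1*. There it also ran from -0.71 to 0.43 for *Ddr2*. From day 0 to day 15 in null mice it ran from -0.20 to 1.46 for *Col1a2*, -1.53 to 0.31 for *Col3a1*, -0.61 to 1.16 for *Col5a2*, -0.82 to 0.31 for *Col12a1*, -0.41 to 0.95 for *Col6a1* and -0.30 to 1.35 for *Col6a3*. There it also ran from -0.36 to 1.06 for *Col15a1*, -1.43 to 0.24 for *Col6a5*, -1.33 to 0.0328 for *Plod2*, -0.64 to 0.87 for *Mmp2*, -3.32 to 2.59 for *Mmp8* and -0.60 to 2.38 for *Mmp9*. In the interaction it ran from -1.88 to 0.79 for *Col1a1*, -1.09 to 0.76 for *Col1a2*, -1.21 to 0.76 for *Col5a1*, -0.87 to 0.90 for *Col5a2*, -0.41 to 1.10 for *Col5a3* and -0.78 to 1.11 for *Col12a1*. There it also ran from -0.34 to 0.49 for *Col16a1*, -0.36 to 1.00 for *Col6a1*, -0.77 to 0.73 for *Col6a2*, -0.36 to 1.28 for *Col6a3*, -1.23 to 0.28 for *Col6a4* and -0.0377 to 1.37 for *Col15a1*. There it also ran from -0.93 to 0.11 for *Col4a5*, -1.89 to 0.55 for *Serpinh1*, -0.50 to 0.10 for *P4ha1*, -0.22 to 0.94 for *Ddr2*, -0.81 to 2.81 for *Mmp13* and -0.53 to 0.24 for *Plod3*. The lowest *Mmp8* values at day 0 and in null mice leave a lone mouse with 0 counts in a group, so that their size is not determined.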
